A study of Mus musculus with 18 samples.

Results

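Arhgap21, Jarid2, Filip1l, Kcnip1 and Mir6236 are 5 mouse genes singled out in RibOxi-seq data in a comparison with rRNA. The first 4 carry counts of at least 1000 at a few single positions, and Mir6236 does not. They were chosen by their measured counts, so the height of the positions is given below as a description and not as a finding. The 5 genes are 5 of 19736 gene names in the table, and their 2212 listed positions are part of 1825851. The counts came from 4T1 cells, a mouse mammary carcinoma line, which in this study also carries mCherry and Renilla luciferase from a lentivirus. The 3 genotypes were 4T1 WT, Snord67KO-1 and Snord67KO-2, each with 3 biologic replicates. The knockouts lack Snord67, a small nucleolar RNA that guides methylation of U6 snRNA, after CRISPR/Cas9 editing with paired nicks, and each is a single clone, so a clone and its genotype cannot be told apart. The 9 libraries analysed here were all made from poly(A)-enriched RNA that was oxidized, and the 9 control samples were not analysed here.

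In RibOxi-seq, RNA fragments whose 3′ nucleotide carries a methyl group on the ribose survive oxidation, so a count is the number of reads whose 3′ end lies at a position. In cells, ribosomal RNA holds many such nucleotides, placed by box C/D small nucleolar RNAs during ribosome assembly. The ribosomal precursor is listed in the table as Rn45s. Poly(A) selection lowers the share of rRNA in a library and does not remove it, and copies of rRNA-like sequence lie scattered through the introns and other noncoding parts of mammalian genomes. Short reads from such sequence can be placed at more than one locus, and how the authors treated such reads is not given in the sources used here.

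Total counts ranged from 212463 to 737219 per library, and Rn45s took 19.3% to 32.4% of them. A count of 0 allows up to 3 counts, which is 4.07 to 14.1 CPM (the share of a library in parts of 1000000) and covers counting error only. Rn45s took 22.7% ± 3.78 (SD, n = 3) in 4T1 WT and 26.5% ± 3.81 (SD, n = 6) in the knockout libraries, a difference that did not pass a two-sided exact permutation test (p = 0.190). That test treated the libraries of both clones as separate units. The share was 22.1% to 24.4% in Snord67KO-1 and 26.4% to 32.4% in Snord67KO-2. Replicate 2 of 4T1 WT stood apart, with 17.8% of its counts on positions marked mispriming against 1.38% to 7.22% in the other libraries, and with the lowest Rn45s share. The epithelial markers Krt8, Krt18, Krt7, Epcam, Cdh1 and Cldn4 had 157 to 1688 counts each over the 9 libraries. Ptprc, Cd68 and Lyz2 of leukocytes had 14, 3 and 1, and Pecam1 and Cdh5 of endothelium had 19 and 22. Of the neuronal markers, Rbfox3 had 91 counts, Tubb3 57, Syt1 32 and Snap25 6. By edgeR, Krt8 (log2 change 1.85 and 1.44) and Krt18 (1.46 and 1.05) rose in Snord67KO-1 and in Snord67KO-2, with adjusted p from 0.000172 to 0.0493. Cldn4 (-6.28), Cdh1 (-1.07) and Rbfox3 (2.70) passed in Snord67KO-1 (adjusted p from 3.79e-07 to 0.0052) and not in Snord67KO-2, while Epcam passed in Snord67KO-2 (1.28, adjusted p = 0.0321) and lay below 0 in Snord67KO-1 (adjusted p = 0.0542). Krt7 did not pass in either clone. The part of these shifts in the results below was not tested.

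Arhgap21, Jarid2, Filip1l and Kcnip1 together held 271638 of 4857967 counts, or 5.59%, which equals 23.1% of the counts of Rn45s. In a library the 4 genes took 4.88% to 6.66% of counts, except in replicate 2 of 4T1 WT with 3.87%. A hot position was defined as a summed count of at least 1000 over the 9 libraries. The 4 genes had 17 hot positions, Mir6236 had 0, Rn45s had 42, and the remaining 145 of the 204 hot positions of the table lay in 52 other genes. The lowest hot position of the 4 genes held 1623 counts (Jarid2), and the highest position below the threshold held 725 (Filip1l). None of the 17 was marked mispriming.

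Arhgap21 encodes a GTPase-activating protein (ENSMUSG00000036591.16, minus strand of chromosome 2, GRCm38). Its highest position, chr2:20899941-20899941, lay in an intron 7.76 kb from the nearest exon. It had 4907, 2411 and 5376 counts in replicates 1 to 3 of 4T1 WT, 4990, 3861 and 6310 in Snord67KO-1, and 2303, 3685 and 3521 in Snord67KO-2. The lowest counts were in replicate 2 of 4T1 WT and replicate 1 of Snord67KO-2, the latter being the library with the smallest total. The other hot positions of the gene held 15475, 13565 and 2671 counts. Positions that reached 10 counts in 3 or more libraries were tested. All 37 tested positions of Arhgap21 lay within chr2:20899894-20900210, and this block of 317 bases held 99.2% of the gene's 78379 counts.

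Jarid2 encodes a DNA-binding partner of Polycomb repressive complex PRC2 (ENSMUSG00000038518.15, plus strand of chromosome 13). Its highest position, chr13:44869901-44869901, was intronic and 4.38 kb from the nearest exon. It had 5035, 2411 and 5528 counts in 4T1 WT, 5070, 3898 and 6422 in Snord67KO-1, and 2315, 3714 and 3563 in Snord67KO-2. In replicate 2 of 4T1 WT, Jarid2 and Arhgap21 thus had the same count, and in the other 8 libraries the Jarid2 count was slightly higher. The other hot positions of Jarid2 held 5605, 2521, 1755 and 1623 counts. Its block, chr13:44869580-44870046 (467 bases), held 98.4% of 59762 counts, and 2 of the 42 tested positions of Jarid2 lay outside it.

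Filip1l encodes a protein related to the filamin A-interacting protein and linked to cell motility (ENSMUSG00000043336.14, plus strand of chromosome 16). Its highest position, chr16:57391378-57391378, was intronic, 37.9 kb from the nearest exon, and it also lay inside Cmss1 on the opposite strand, outside the exons of Cmss1. It had 4299, 2335 and 4742 counts in 4T1 WT, 4469, 3506 and 5557 in Snord67KO-1, and 2137, 3305 and 3235 in Snord67KO-2. The counts ranked the 9 libraries in the same order as in Arhgap21 and Jarid2. The other 5 hot positions held 16805, 13472, 12237, 11397 and 2649 counts. The block, chr16:57391115-57391653 (539 bases), held 99.6% of 104795 counts and all 59 tested positions.

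Kcnip1 encodes a calcium-binding subunit of voltage-gated potassium channels of neurons (ENSMUSG00000053519.15, minus strand of chromosome 11). Its highest position, chr11:33755005-33755005, was intronic and 88.1 kb from the nearest exon. It had 1650, 1202 and 1994 counts in 4T1 WT, 1979, 1699 and 2642 in Snord67KO-1, and 1093, 1633 and 1548 in Snord67KO-2. Its other hot position, chr11:33754767-33754767, held 10203 counts against 15440. The block, chr11:33754767-33755047 (281 bases), held 98.5% of 28702 counts and all 12 tested positions. Outside the block Kcnip1 had 0 counts in its exons in every library, beside the low counts of neuronal markers given above.

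The hot positions were single bases. At the highest position of Arhgap21, with 37364 counts over the 9 libraries, the bases on its sides had 10 and 9. Over the 17 hot positions the higher of both flanking bases held 2 to 161 counts (median 13), and it was under 2% of the hot count at 16 of them. At the 42 hot positions of Rn45s the higher flank held a median of 59 counts and was under 2% at 36. The median hot count was 12237 in the 4 genes and 12862 in Rn45s, and the highest was 37956 and 164138. Both sets start at 1000 counts and the genes were chosen for high counts, so these heights are a description.

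When the blocks were laid on each other at their highest position, several hot positions fell at the same or nearby distances. How alike their counts were is given below. Arhgap21 had to be read in mirrored order, and Jarid2, Filip1l and Kcnip1 in the order of the genome. Arhgap21 and Filip1l both had hot positions 250, 240 and 129 bases before the highest one. Jarid2 had them 248 and 128 bases before, which is 2 and 1 bases closer, and Kcnip1 had one 238 bases before, again 2 bases closer. Filip1l and Jarid2 shared hot positions 91 and 101 bases after the highest one. Arhgap21 and Kcnip1 had no hot position on that side.

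**Figure D1:**
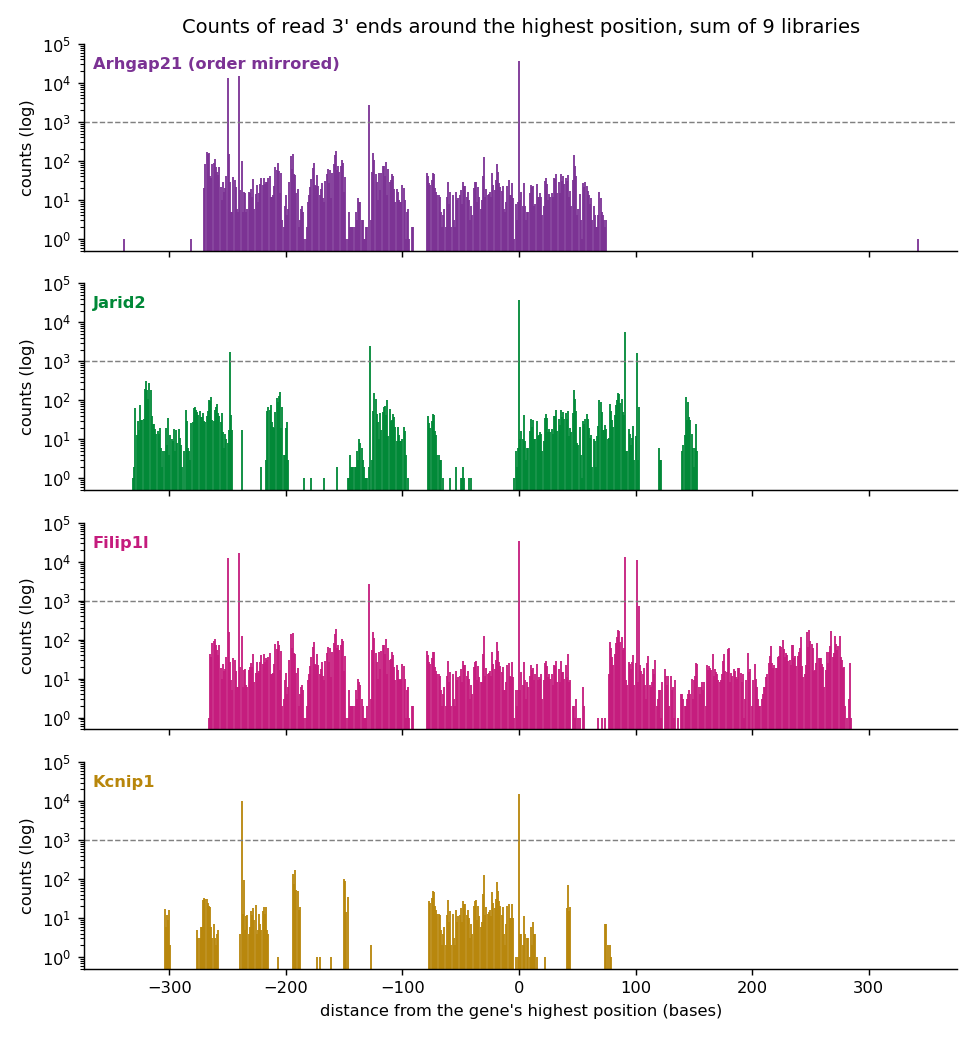
Counts of read 3′ ends summed over 9 libraries (log axis) at each base from 400 before to 400 after the highest position of Arhgap21 (mirrored), Jarid2, Filip1l and Kcnip1, with a dashed line at 1000 counts. The tall lines at 250, 240 and 129 bases before the highest position recur in Arhgap21 and Filip1l, and the bases between the tall lines hold low counts in all 4 genes.

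Arhgap21 and Filip1l were more alike than independent counting would give. They shared 32 distances at which both had a tested position, against 5 in the unmirrored order. At 9 of the 32 the counts were equal in all 9 libraries, and 196 of the 288 pairs of counts were equal. At 129 bases before the highest position, Arhgap21 had 411, 183 and 635 counts in 4T1 WT, 330, 247 and 342 in Snord67KO-1 and 94, 220 and 209 in Snord67KO-2. Filip1l had 408, 181 and 628, then 324, 246 and 339, then 94, 220 and 209 at the matching base, so that Snord67KO-2 was equal in all replicates and no library differed by more than 7 counts.

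The likeness of 2 positions was measured as the SD over the 9 libraries of the log2 ratio of their counts, with 0.5 added to each. It was 0.0091 for that pair, where independent counting alone would give 0.135. Over the 32 shared distances the median SD was 0.043 against 0.786 from counting, and it was below the counting value at 29. At the tallest positions the pairs were not identical. The SD was 0.046 at the highest position against 0.034 from counting, and Filip1l had 0.899 times the counts of Arhgap21 there, while 240 bases before it had 1.09 times. Whether the same reads were counted at several loci was not tested, since the reads were not analysed here.

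**Figure D2:**
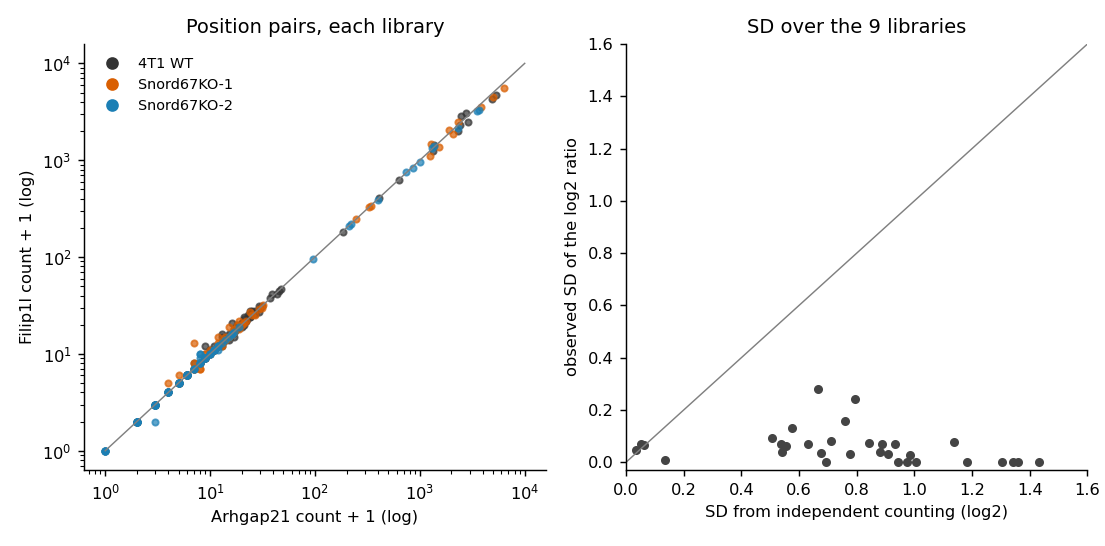
Left, counts + 1 of Arhgap21 and Filip1l (log axes) at the 32 distances where both have a tested position, 1 point for each library, with the line of equality. Right, the observed SD of the log2 ratio over 9 libraries against the SD that independent counting would give, with 29 of 32 points below the line.

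The other pairs matched in part. The highest positions of Arhgap21 and Jarid2 had an SD of 0.013 (0.033 from counting) and 37364 and 37956 counts. Jarid2 and Filip1l shared 13 distances, and the SD was below counting at 8. At their shared hot positions 91 and 101 bases after the highest one it was 0.297 and 0.205 (0.079 and 0.12 from counting). Filip1l had 2.40 and 7.02 times the counts of Jarid2 there. For the nearby positions, the SD to Arhgap21 was 0.038 (0.136 from counting) for Jarid2 at 128 bases before. It was 0.467 (0.143) for Jarid2 at 248 and 0.220 (0.0586) for Kcnip1 at 238. Filip1l and Kcnip1 shared 6, with 1 equal in all 9 libraries, and Arhgap21 and Kcnip1 shared 6, also with 1 such position. The highest position of Kcnip1 was less like the others, with SDs of 0.140 to Filip1l, 0.176 to Arhgap21 and 0.189 to Jarid2, and with 0.413 times the counts of Arhgap21.

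Taken over all 2092 tested positions of the table, 30 of the 37 in Arhgap21 and 31 of the 59 in Filip1l had a partner in another gene with an SD under 0.1. In Jarid2 5 of 42 had one, in Kcnip1 5 of 12 and in Mir6236 0 of 20. The search was not run from the positions of other genes. Whether these counts exceed the share over all tested positions is therefore not known. All 28 such pairs of Arhgap21 and Filip1l lay on a single mirrored line. The lincRNA gene D130009I18Rik on chromosome 14, which is no member, had 23 partners of Arhgap21 on a mirrored line and 25 of Filip1l on a line in the same order. The counts of the 4 genes were thus not independent of each other, and their number is not a number of separate observations.

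Set against Rn45s, Kcnip1 kept the narrowest range across libraries. It had 21.6 to 26.8 counts per 1000 Rn45s counts over the 9 libraries, Jarid2 43.8 to 61.9, Arhgap21 51.03 to 79.6 and Filip1l 73.4 to 111. Among 6294 genes ranked by likeness of their total to that of Kcnip1, Rn45s was nearest, with an SD of 0.081, then Gnb1l (0.088) and Lars2 (0.141). For Jarid2 the nearest were Filip1l (0.077), Arhgap21 (0.086) and Lars2 (0.094), with Rn45s at rank 12. For Arhgap21 they were Jarid2, Zfp185 and Filip1l with Rn45s at rank 16, and for Filip1l they were Jarid2, Tmtc2 and Lars2 with Rn45s at rank 29. For Mir6236 they were Impg1, Atf2 and Col6a6, and Rn45s stood at rank 2026 with an SD of 0.584. These likenesses share the libraries and their depths, and are given as descriptions over 9 libraries.

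By position the likeness was uneven. Of the 20 tested positions most like the highest position of Arhgap21, 13 lay in Rn45s, where 21.2% of all tested positions lie, and 12 of 20 did so for the highest positions of Jarid2, Filip1l and Kcnip1. At the remaining 13 hot positions the number was 0 to 9 of 20. The closest Rn45s position to the highest one of Arhgap21 had an SD of 0.136 against 0.036 from counting, so no Rn45s position followed it as closely as Jarid2 did. The label rRNA-like rests on the counts that chose the genes, and Mir6236 did not meet it, with no hot position and with Rn45s far down its ranking. The sequence of the 4 intronic blocks was not compared with rRNA here.

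The rest of each gene was almost empty. The blocks covered 0.0772% to 0.262% of the length of the 4 genes. Inside, Arhgap21 had 245 counts per base, and outside 0.0055. Outside its block Arhgap21 had 664 counts, of which 206 lay in exons, Filip1l 371 with 105 in exons, Jarid2 976 with 23, and Kcnip1 434 with 0. Per library these outside counts were 104 to 213 CPM in Arhgap21, 118 to 343 in Jarid2, 32.6 to 147 in Filip1l and 37.6 to 123 in Kcnip1, with the highest value in a 4T1 WT library each time.

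Hot positions held 88.1% of the counts of Arhgap21, 82.8% of Jarid2, 86.0% of Filip1l and 89.3% of Kcnip1. Rn45s had 91.1%, and the median over the 58 combinations of gene name and chromosome with a hot position was 86.6%. In Arhgap21 the share was 83.1% to 87.6% in 4T1 WT and 88.02% to 91.9% in the knockout libraries, with no overlap. In Jarid2 it was 74.9% to 83.1% against 84.6% to 89.5%, again with no overlap. In Filip1l (81.2% to 85.6% against 85.3% to 90.0%) and in Kcnip1 (82.9% to 89.7% against 88.8% to 94.6%) the ranges overlapped.

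The share was higher without overlap in 8.77% of the 57 genes that could be compared, and lower in 0%. The difference was 5.63 percentage points in Arhgap21 and 8.83 in Jarid2, each with p = 0.0238 in a two-sided exact permutation test, the smallest p that 3 against 6 libraries can give. It was 4.92 in Filip1l and 5.49 in Kcnip1, each with an exact p = 0.0476. Adjusted over the 57 genes, each of these p-values became 0.247, so none passed. As no p could fall below 0.0238, a gene could pass the adjustment only if many of the 57 reached that value. In the same test 11 of the 57 had an unadjusted p under 0.05. The test thus could not decide whether the shares differ. It was added after the data were seen, and it treated the 6 knockout libraries of the 2 clones as separate units.

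The comparison of genotypes asked whether the counts at these positions differed between the knockout clones and 4T1 WT. After adjustment no position of the 5 genes passed with edgeR, while DESeq2 called some, as given below. With edgeR's quasi-likelihood test and adjustment over all 2092 tested positions, 0 of the 170 tested positions of the 5 genes passed 0.05 for the clone average, the mean of the log2 changes of Snord67KO-1 and Snord67KO-2 from 4T1 WT, beside 0.0478% of all positions. The count was also 0 for Snord67KO-1 (0.0478% of all) and for Snord67KO-2 (0.0478%). At an unadjusted p under 0.05 there were 11 of 170 for the clone average (6.47%, against 9.42% of all positions), 2 for Snord67KO-1 (1.18%, against 3.44%) and 12 for Snord67KO-2 (7.06%, against 12.3%). DESeq2 called 1, 0 and 1, beside 12, 12 and 24 of all positions, and gave no adjusted p to 1583, 1 and 1542 of the 2092 positions. The p-values measure the spread between these libraries, and those of one clone share that clone.

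The highest positions of the 4 genes all had higher mean values in the knockouts, and the other hot positions lay on both sides of 0. On the log2 scale the change for the clone average was 0.74 ± 0.31 (SE) in Arhgap21, 0.72 ± 0.32 in Jarid2, 0.76 ± 0.29 in Filip1l and 0.94 ± 0.28 in Kcnip1, with edgeR adjusted p from 0.480 to 0.512. These values came from positions whose counts followed each other closely, as shown above, and are not independent of each other. Over the 17 hot positions the change ran from -0.69 to 0.94 with a median of 0.12, and 8 were below 0. The median was -0.33 over the 170 tested positions of the 5 genes and -0.17 over all tested positions. Without replicate 2 of 4T1 WT the value for Arhgap21 was 0.55, and without replicate 3 of 4T1 WT it was 1.22.

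**Figure D3:**
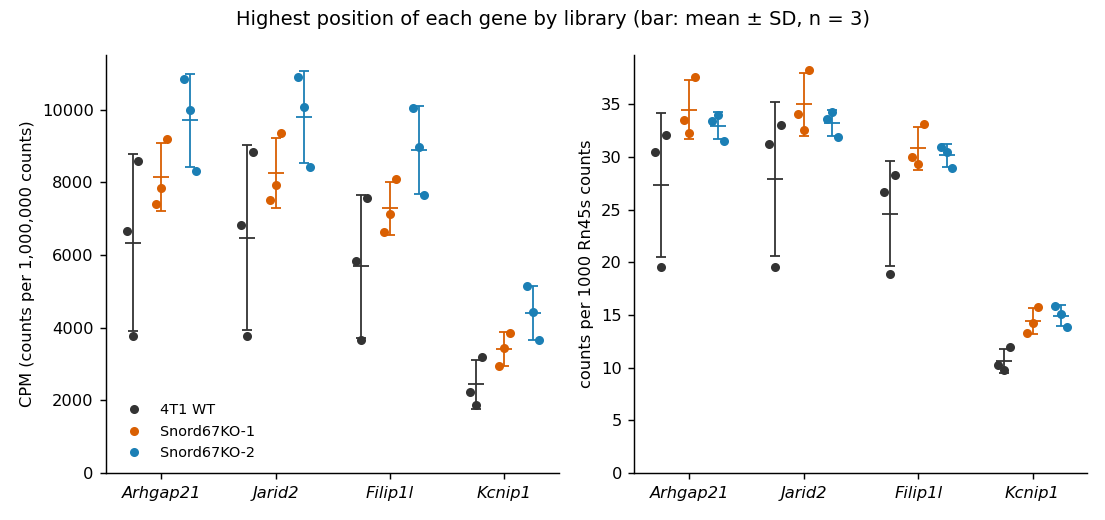
The highest position of Arhgap21, Jarid2, Filip1l and Kcnip1 in each library, as CPM (left) and as counts per 1000 Rn45s counts (right), with points for libraries and bars for the mean ± SD (n = 3). The lowest 4T1 WT point in Arhgap21, Jarid2 and Filip1l is replicate 2 in both panels, and in Kcnip1 per Rn45s the 4T1 WT points, 9.74 to 11.9, lie below all knockout points, 13.3 to 15.9.

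With the counts of Rn45s in place of the library total, the median log2 change over all tested positions was -0.71 for the clone average, against -0.17 by count, and 1858 of 2092 lay below 0. Over the 170 positions the median was -0.81. The highest positions stood above these medians, at 0.47 ± 0.12 (SE) in Kcnip1, 0.31 ± 0.13 in Filip1l, 0.30 ± 0.15 in Arhgap21 and 0.29 ± 0.15 in Jarid2, and the other 13 hot positions were below 0, down to -1.21 in Jarid2. With edgeR 0 of 170 passed, beside 0.0956% of all positions, and for Snord67KO-1 and Snord67KO-2 it was 0 as well, beside 0% and 0%. The smallest adjusted p was 0.170. At an unadjusted p under 0.05 there were 59 of 170 (34.7%, against 26.2% of all), 21 (12.4%, against 8.08%) and 57 (33.5%, against 26.2%). Matching positions of Arhgap21 and Filip1l were counted separately here, although their counts were not independent. DESeq2 called 12 of the 170, beside 109 of all 2092. Only the highest position of Kcnip1 was called upward (0.46, adjusted p = 0.00967), and the others were called downward, from -1.05 to -2.14. The downward calls held 2 hot positions of Jarid2, chr13:44869653-44869653 (-1.21, adjusted p = 0.0183) and chr13:44869992-44869992 (-1.05, adjusted p = 0.0269). For the single clones DESeq2 called 0 and 7, beside 26 and 82 of all positions.

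The highest position of Kcnip1 had 9.74 to 11.9 counts per 1000 Rn45s counts in 4T1 WT and 13.3 to 15.9 in the knockouts, with no overlap. Its other hot position had 9.08 to 9.88 in 4T1 WT and 7.76 to 8.84 in the knockouts, also with no overlap and in the opposite direction. Of the 170 positions, 2 were higher without overlap (Kcnip1 and Filip1l at their highest position), against 0.717% of all positions, and 27 were lower without overlap, against 7.6% of all. Several of the 27 were matching bases of Arhgap21 and Filip1l with almost equal counts, so the 27 are not separate observations. Without replicate 2 of 4T1 WT the log2 change relative to Rn45s was 0.41 in Kcnip1 and 0.11 in Arhgap21.

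When each position was set against all remaining counts of its gene, 0 of 170 positions passed with edgeR for the clone average, Snord67KO-1 or Snord67KO-2, beside 0%, 0% and 0% of the 2051 positions that could be compared. At an unadjusted p under 0.05 there were 43 (25.3%, against 17.5% of all), 21 (12.4%, against 5.36%) and 38 (22.4%, against 17.3%), again with matching positions of Arhgap21 and Filip1l counted separately. The highest positions were higher by 1.07 ± 0.24 (SE) in Jarid2, 0.81 ± 0.13 in Arhgap21, 0.81 ± 0.15 in Filip1l and 0.79 ± 0.14 in Kcnip1, with adjusted p from 0.175 to 0.266. The median over the 170 was -0.59 and over all compared positions -0.46. The highest position alone held 47.67% of the counts of Arhgap21, 63.51% of Jarid2, 32.05% of Filip1l and 53.79% of Kcnip1. It was part of the remaining counts for every other position of its gene, so a rise there lowers the values of the others. In these genes the higher highest positions and the lower other positions are therefore not separate results. How much of the lower values came from this was not tested.

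**Figure D4:**
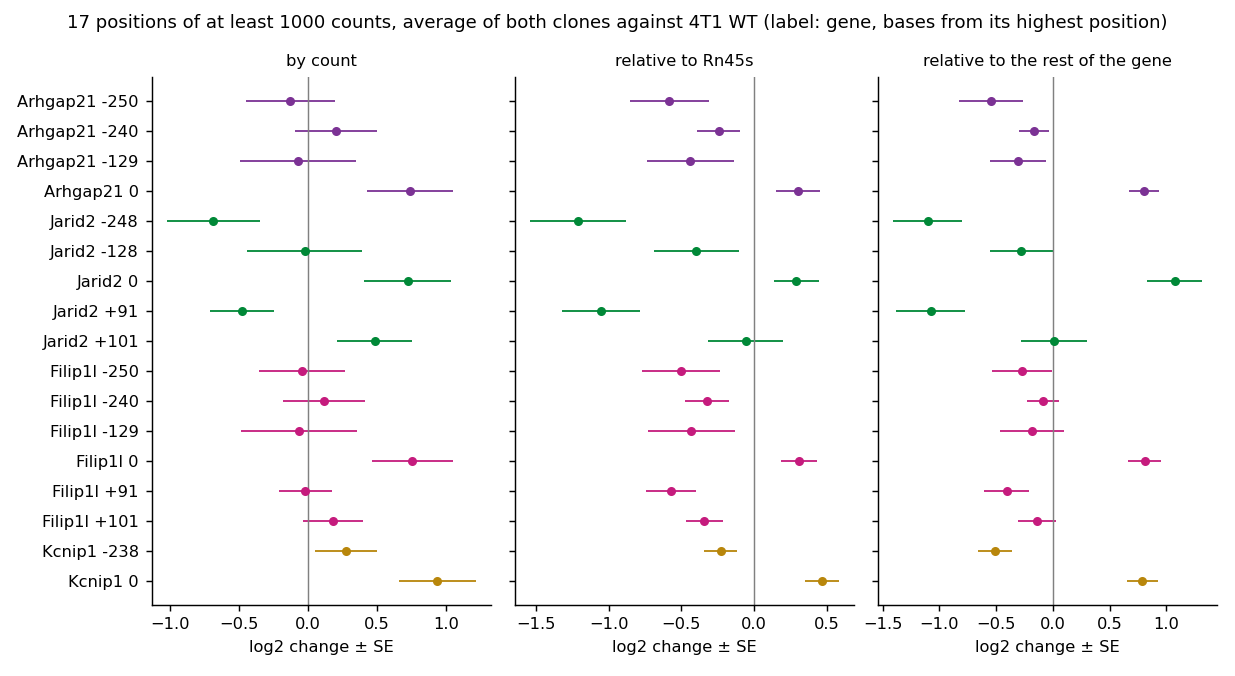
Log2 change ± SE of the 17 hot positions for the clone average against 4T1 WT, by count, against Rn45s and against the remaining counts of the gene, labelled by gene and distance from its highest position. The highest position of each gene lies to the right of 0 in all 3 panels, and 13 of 17 lie to the left of 0 relative to Rn45s.

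By total count 1 of the 5 genes passed for the clone average and for Snord67KO-1, beside 12.1% and 18.3% of 6295 genes, and 0 for Snord67KO-2, beside 3.18%. That gene was Mir6236. For the clone average the log2 change of the total was 0.05 ± 0.32 (SE) in Arhgap21, 0.07 ± 0.29 in Jarid2, -0.04 ± 0.30 in Filip1l and 0.30 ± 0.27 in Kcnip1, with edgeR adjusted p from 0.513 to 0.949. The sign of the first 3 turned with the scaling, the filter or a left-out library. The CPM of a gene was higher without overlap in the knockouts in 0 of the 5 genes (4.34% of all) and lower in 1 (4% of all).

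Mir6236 is annotated as a microRNA gene (ENSMUSG00000098973.1, 123 bases on the plus strand, chr9:110281287-110281409). By its counts it was unlike the other 4. It had no hot position, and its 3870 counts were spread over 69 positions, the highest of which held 203. Its 20 tested positions lay within 57 bases and 10 of them directly followed another. The end of the reads could be read against the sequence here, since positions counted from 1 matched the annotated strand.

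The mature microRNA and windows at the start of the transcript and around the highest position are shown because few reads ended where the annotated product lies. In the mature form capitals mark the seed, bases 2 to 8, and in the windows they mark tested positions. The mature sequence is from RefSeq on GRCm38.p6 (chr9:110281353-110281371), and the windows are from GENCODE M21 (chr9:110281287-110281307 and chr9:110281323-110281349, plus strand).
mmu-miR-6236: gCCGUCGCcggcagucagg
window at the start of the transcript: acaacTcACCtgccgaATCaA
window around the highest position: gatggcGctggAGCGtGgggaccatAc

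Of the counts of Mir6236, 98.7% lay before the mature part, 1.27% in it and 0.0517% after it. Per library, 98.1% to 99.4% lay before it, and no tested position fell into the mature part. The highest position, chr9:110281337-110281337, is the capital G closing the run in the window around it, and the second highest is the base before it. It had 43, 26 and 32 counts in 4T1 WT, 18, 14 and 41 in Snord67KO-1, and 4, 10 and 15 in Snord67KO-2. All 4 nucleotides occurred at tested positions, 7 C, 6 A, 4 G and 3 T.

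**Figure D5:**
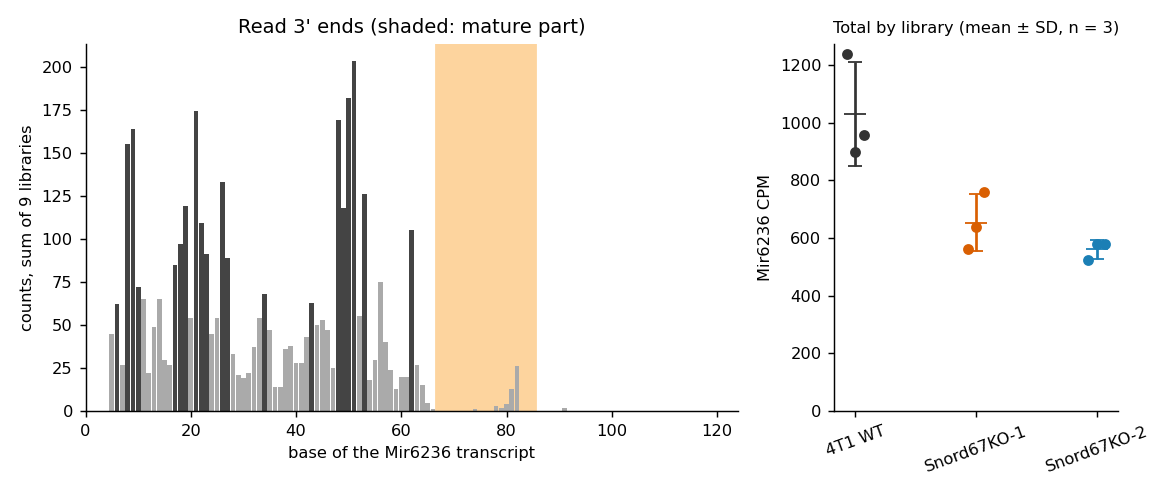
Left, counts of read 3′ ends summed over 9 libraries along the 123 bases of the Mir6236 transcript, with tested positions dark and the mature part shaded. Right, CPM of Mir6236 in each library with the mean ± SD (n = 3), where the 4T1 WT points, 900.0 to 1237, lie above all knockout points, 522 to 759.

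Mir6236 had 912, 575 and 598 counts in 4T1 WT, 379, 314 and 521 in Snord67KO-1, and 111, 214 and 246 in Snord67KO-2. As CPM this was 1031 ± 180.4 (SD, n = 3), 653 ± 98.8 (SD, n = 3) and 561 ± 33.7 (SD, n = 3), and every 4T1 WT library lay above every knockout library. The log2 change was -0.74 ± 0.20 (SE) for the clone average (edgeR, adjusted p = 0.0257), -0.82 ± 0.24 for Snord67KO-1 (adjusted p = 0.0251) and -0.66 ± 0.24 for Snord67KO-2 (adjusted p = 0.146). The decrease was thus called in 1 clone and not in the other, and the difference between the clones was not tested. The call in Snord67KO-1 was lost without replicate 1 or 3 of 4T1 WT (edgeR adjusted p = 0.0962 and 0.0641), without replicate 1 or 2 of Snord67KO-1 (0.161 and 0.0796) and when only 4T1 WT and this clone were fitted (0.0758). Per 1000 Rn45s counts the gene had 4.63 ± 1.04, 2.76 ± 0.302 and 1.93 ± 0.299.

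The call for the clone average was lost without replicate 1 or 3 of 4T1 WT (adjusted p = 0.117 and 0.0732), without replicate 1 of Snord67KO-1 (0.0728) or without any single replicate of Snord67KO-2 (0.0502 to 0.0673). For Snord67KO-2 the decrease passed without replicate 2 of 4T1 WT (-0.89, edgeR adjusted p = 0.00967) or without positions marked mispriming (0.0129), and it did not pass with any other library left out. With edgeR none of its 20 positions passed on its own, and by count 16 of 20 were below 0 for the clone average. Relative to Rn45s all 20 were below 0. There DESeq2 called chr9:110281307-110281307 (-2.14, adjusted p = 0.0202), chr9:110281308-110281308 (-1.57, adjusted p = 0.0282) and chr9:110281335-110281335 (-1.42, adjusted p = 0.0334). In bulk RNA, fewer copies of the RNA and less methylation at a position cannot be told apart. In these libraries the Rn45s share was higher in the knockouts by 3.85 percentage points, and the clones differed in it. It was 19.3% to 26.8% in 4T1 WT, 22.1% to 24.4% in Snord67KO-1 and 26.4% to 32.4% in Snord67KO-2. The part of the Rn45s share in the result was not tested.

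A list of 22 genes, written with these results known, held Rn45s, the 5 genes and others picked as possible places for rRNA reads, and whether such reads explain their counts was not tested. It had 13 genes with listed positions, and 12 could be tested by total count. For the clone average 2 of the 12 passed with edgeR, beside 12.1% of all genes, Mir6236 downward and Tex14 upward (0.81, adjusted p = 0.00737). Neither passed in Snord67KO-2 alone (adjusted p = 0.146 and 0.0615). The median change of the list was -0.0041 on the log2 scale for the clone average, beside -0.05 over all genes tested. Lars2 held 169354 counts with 9 hot positions, Camk1d 109895 with 11, Gphn 68470 with 4 and Zc3h7a 28833 with 1, while Tex14 had 3279 with 0. Arhgap21, Jarid2, Filip1l and Kcnip1 are in this list too, and lie within the range of these counts. Of 21 genes of the RNA polymerase I machinery, which makes the rRNA precursor, 12 could be tested, and 2 of these passed for the clone average, beside the same 12.1% of all genes. Polr2k, a subunit shared by the nuclear RNA polymerases, had -1.09 (edgeR adjusted p = 0.0239), and Taf1d, a subunit of the promoter-binding factor SL1, had -0.80 (adjusted p = 0.0338). Both passed in Snord67KO-1 (adjusted p = 0.0172 and 0.00809) and not in Snord67KO-2 (0.177 and 0.412). The median of the list was -0.20.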

How the data were processed

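RibOxi-seq was analysed in 9 oxidized libraries of 4T1 cells (4T1 WT, Snord67KO-1 and Snord67KO-2, 3 each), grouped by their labels. The authors deposited a table of raw counts, each the number of reads ending (3′) at one genomic base, with a gene name and a mispriming mark that was not defined in the sources used here. The submitters' processing notes name cutadapt, STAR and mm10. Gene positions were taken from GENCODE M21 on GRCm38. The study's methods name build m39 for RNA-seq of 4T1 cells. The deposited positions were checked on GRCm38, where 98.6% of 720 (plus strand) and 99.2% of 734 (minus strand) exonic positions marked mispriming were followed by 6 bases of which 4 or more matched the linker's start, so this build was used. Positions that reached 10 counts in 3 or more libraries were tested, as were gene totals under the same filter. Tests used edgeR 4.0.16 (quasi-likelihood, TMM, R 4.3.3) over all positions or genes with Benjamini-Hochberg adjustment. DESeq2 1.42.0 served as an alternative, and only edgeR was run on simulated data. Relative to Rn45s or to the rest of the gene, those counts replaced the library size. Shares were compared by exact permutation tests, and the test of the hot share was added after the data were seen. Members and gene lists were chosen with earlier results of these data known. Named were the 5 genes, their highest and hot positions, members of fixed lists and the genes most like each member. Replicate numbers did not pair the samples throughout (correlations of deviations from -0.56 to 0.72), and the replicate was a term in an alternative fit only. Depth ranged from 212463 to 737219 counts.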

Additional observations from a re-analysis of the deposited data

Results flagged for a closer look

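The hot position of Kcnip1 at chr11:33754767-33754767 stood out because the clones lay on opposite sides of the 4T1 WT mean by CPM. It had 2159, 1866 and 2430 CPM in 4T1 WT, 1766, 2149 and 1956 in Snord67KO-1 and 2546, 2284 and 2190 in Snord67KO-2. Every Snord67KO-1 library lay below the 4T1 WT mean and every Snord67KO-2 library above it, and Snord67KO-2 exceeded Snord67KO-1 by 0.26 on the log2 scale. Of the knockout values only 1766 and 2546 CPM lay outside the range of the 4T1 WT libraries, so neither clone was set apart from 4T1 WT by CPM. The difference between the clones was not tested. Per 1000 Rn45s counts all knockout libraries of both clones lay below all 4T1 WT libraries.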

How the results depend on the processing

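The number of member positions passing stayed at 0 in each contrast under every edgeR alternative and every left-out library. DESeq2 instead called 1 position by count for the clone average and 1 for Snord67KO-2, the highest position of Kcnip1 both times. Relative to Rn45s it called 12 and 7, all but that position downward, and the cause was not tested. Over all positions the filter of a summed count of 10 gave 85, 5 and 2 calls by count in place of 1, 1 and 1, and DESeq2 12, 12 and 24. Over all genes the calls ran from 321 to 912 for the clone average (759 in the report), 575 to 2037 for Snord67KO-1 (1149) and 32 to 279 for Snord67KO-2 (200), left-out libraries aside. By total count 0 member genes passed for Snord67KO-1 when only 4T1 WT and that clone were fitted, and 1 for Snord67KO-2 without positions marked mispriming, and leaving out a library gave 0 to 1 in each contrast.

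With the replicate block 0 member positions passed, and 1, 1 and 0 member genes did, among 871, 1266 and 279 genes. Same-numbered libraries did not deviate together throughout, with correlations from -0.56 to 0.72. The WT and Snord67KO-1 libraries did so in replicate 2 (0.72) and replicate 3 (0.70), and not in replicate 1 (-0.23). Correlations with the Snord67KO-2 libraries ran from -0.56 to 0.15. The main fit held no replicate term.

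The difference in Rn45s share was 2.19 to 5.91 percentage points with a library left out. The difference in hot share was then 4.73 to 6.98 in Arhgap21, 7.46 to 11.5 in Jarid2, 3.76 to 5.98 in Filip1l and 3.74 to 7.14 in Kcnip1. The hot share of Jarid2 was 77.1% at a threshold of 2000 counts.

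Changes near 0 turned sign. For the clone average the total of Arhgap21 was -0.0327 with the filter of a summed count of 10 and -0.0486 without marked positions, that of Jarid2 -0.0129 and -0.0392, and that of Filip1l 0.0275 without Rn45s in the library total and 0.0122 with the replicate block. For Snord67KO-1, Arhgap21 was 0.0088 without TMM and 0.0117 without Rn45s, Jarid2 0.0011 without Rn45s, and Kcnip1 0.16, 0.17 and, with the replicate block, 0.0074. The highest position of Mir6236 relative to the rest was -0.041 for Snord67KO-2 with the replicate block. With a library left out, the totals for the clone average, Snord67KO-1 and Snord67KO-2 ran from -0.30 to 0.45, -0.55 to 0.19 and -0.0412 to 0.71 in Arhgap21. They ran from -0.34 to 0.27 (average) and -0.0737 to 0.54 (Snord67KO-2) in Filip1l, from -0.23 to 0.38 (average) and -0.51 to 0.0931 (Snord67KO-1) in Jarid2, and from -0.30 to 0.32 (Snord67KO-1) in Kcnip1. The highest position of Mir6236 ran from -0.55 to 0.19 by count for Snord67KO-1, and relative to the rest from -0.0383 to 0.21, -0.0832 to 0.41 and -0.23 to 0.15.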
